A study of Mus musculus with 12 samples.

Results

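The aquaporins measured here are the 5 genes Aqp1, Aqp3, Aqp5, Aqp8 and Aqp11, taken as every array probe whose annotated symbol is one of these names. They had 10 of the 25697 probes on the array, which carried 16593 named genes in all. Of the 10 probes, 3 belonged to Aqp1, 1 to Aqp3 and 2 each to Aqp5, Aqp8 and Aqp11. Detection on at least 3 of the 12 arrays was met by 9 of them, and detection on all 12 arrays by 8.

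Aquaporins are membrane proteins whose pores let water cross cell membranes along an osmotic gradient. Some members also pass glycerol, ammonia or hydrogen peroxide. In secretory and absorptive epithelia, chloride, bicarbonate and sodium transport sets up the gradient, and aquaporins in the apical and basolateral membranes let water follow. The oviduct lumen holds a fluid in which gametes and early embryos are carried, and its amount and content vary with the ovarian cycle.

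The RNA came from oviducts of 6-week-old ICR mice, an outbred stock, collected at proestrus, estrus, metestrus and diestrus, with no treatment or genetic change named in the labels. Each stage had 3 arrays of a 1-colour Illumina bead array, on which biotin-labelled cRNA is hybridised, and the comparison asked which transcripts differ between stages. Nothing in the labels tells whether the 3 are separate animals, pools or repeat hybridisations, so p-values measure the spread between arrays, which may be technical. Proestrus is the stage of rising estrogen before ovulation, estrus the one around ovulation, and metestrus and diestrus the stages that follow, with newly formed corpora lutea.

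Replicate 1 stood apart on every stage. Its 4 arrays had a median raw intensity of 139.4 to 156.3 and 55.6% to 58.1% of probes detected, against 99.3 to 105 and 48.6% to 51.8% on the arrays of replicates 2 and 3. Each stage holds 1 array of the brighter set, and values within each set are given for the main differences. Markers of oviduct epithelium were present, with 5 of 5 secretory and 6 of 6 ciliated markers on the array detected on all arrays. Levels below are normalised intensities on the log2 scale, ± SD over n = 3 arrays, and differences carry the standard error of a limma fit to all 12 arrays. A gene was called where the limma p-value, adjusted over 10144 genes by the Benjamini-Hochberg method, was under 0.05.

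The promoters of the 4 genes that passed the test across the cycle are printed because their transcripts moved with a hormonal cycle, in opposite directions. Each is the 250 bases before the RefSeq start on GRCm38.p6, 5′ to 3′ in the direction of the gene. Capitals mark every match to 7 motifs searched on both strands.
Aqp8 (chr7:123462044-123462293, plus strand): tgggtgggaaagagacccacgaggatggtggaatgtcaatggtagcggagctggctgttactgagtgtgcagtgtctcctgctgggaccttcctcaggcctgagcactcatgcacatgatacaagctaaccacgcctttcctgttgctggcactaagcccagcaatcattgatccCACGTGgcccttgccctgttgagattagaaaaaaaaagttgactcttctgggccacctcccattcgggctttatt
Aqp5 (chr15:99590778-99591027, plus strand): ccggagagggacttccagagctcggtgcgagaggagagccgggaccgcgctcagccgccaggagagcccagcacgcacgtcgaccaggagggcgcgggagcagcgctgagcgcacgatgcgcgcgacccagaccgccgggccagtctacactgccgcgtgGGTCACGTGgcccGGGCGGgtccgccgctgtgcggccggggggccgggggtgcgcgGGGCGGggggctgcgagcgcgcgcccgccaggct
Aqp1 (chr6:55336049-55336298, plus strand): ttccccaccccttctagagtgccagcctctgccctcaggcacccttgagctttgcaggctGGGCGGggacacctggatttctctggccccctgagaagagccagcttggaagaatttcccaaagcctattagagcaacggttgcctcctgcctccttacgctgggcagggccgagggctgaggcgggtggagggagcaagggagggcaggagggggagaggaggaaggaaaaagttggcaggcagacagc
Aqp11 (chr7:97738248-97738497, minus strand): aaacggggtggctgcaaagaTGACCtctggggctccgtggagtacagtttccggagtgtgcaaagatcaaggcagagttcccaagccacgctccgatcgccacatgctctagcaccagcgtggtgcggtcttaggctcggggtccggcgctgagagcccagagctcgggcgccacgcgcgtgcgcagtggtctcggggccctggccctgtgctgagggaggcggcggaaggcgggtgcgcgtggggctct

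The E box CACGTG, the site of several basic helix-loop-helix factors, lay 75 to 70 bases before the Aqp8 start and 87 to 82 bases before the Aqp5 start. It occurs in 6.02% of the 32851 promoters searched at this length. In Aqp5 it overlapped the estrogen receptor core motif GGTCA at 90 to 86 bases, a pentamer present in 35.2% of promoters. Aqp11 held that motif on the other strand, as TGACC, at 230 to 226 bases. The GC box GGGCGG, found in 32.7% of promoters, was matched at 77 to 72 and 34 to 29 bases in Aqp5 and at 190 to 185 bases in Aqp1. The other motifs were the full estrogen response element, an inverted repeat of GGTCA with 3 bases between the arms (0.0639% of promoters), the hormone response core ACANNNTGT (5.84%), the AP-1 site TGANTCA (6.75%) and the TATA box TATAAA (12.4%), and no match to any of these was in the 4 windows. The promoters also differed in base composition. Aqp5 had 78.4% G and C and 38 CpG pairs, a CpG count that 98.4% of promoters did not exceed, and Aqp11 had 67.2% and 23. Aqp1 had 62% and 5, and Aqp8 had 52.4% and 5, where the median promoter has 52.4% and 6.

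Across the cycle, 4 of the 5 aquaporins changed by the moderated F test, where 5.37% of all tested genes did. With the replicate number as a block the same 4 of the 5 passed, where 16.4% of all genes did. The 5 genes were chosen with earlier results of these data known, so their counts and these shares are not like for like. Aqp4, the only further aquaporin gene with a kept probe, had an F adjusted p of 0.0719, and 0.0164 with the block. Aqp8, known from liver and exocrine glands, and Aqp5, known from apical membranes of secretory glands, were highest at proestrus and lowest at metestrus and diestrus. Aqp1, the water channel of endothelium and red cells, and Aqp11, which sits in the endoplasmic reticulum, ran the other way. Aqp3, a basolateral channel that also passes glycerol, was close to background and did not pass. The adjusted p of the F test was 1.82e-07 for Aqp8, 3.36e-05 for Aqp5, 0.0074 for Aqp1, 0.0493 for Aqp11 and 1 for Aqp3. Between their highest and lowest stage means the 4 genes spanned 8.83-fold, 3.26-fold, 2.03-fold and 1.70-fold in the same order. In RNA of a whole organ, fewer cells of a type and less RNA per cell cannot be told apart.

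**Figure D1:**
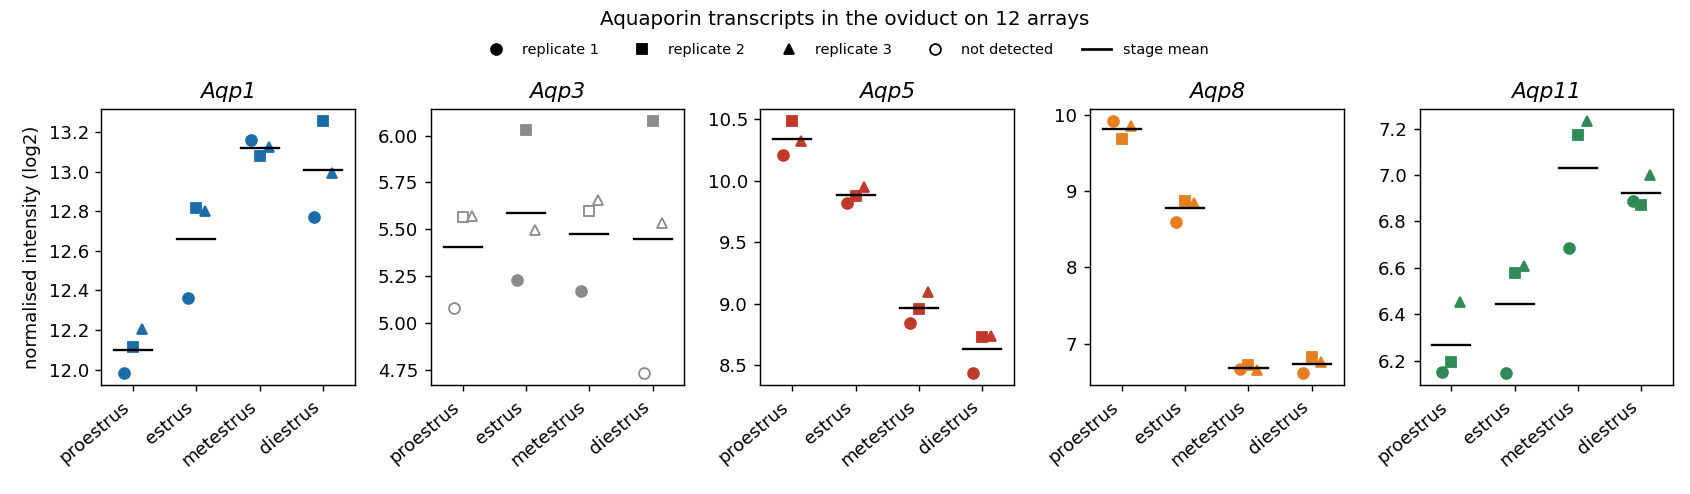
Normalised intensity (log2, vertical axis) of the 5 aquaporin genes on each of the 12 arrays, by stage. Marker shapes are the 3 replicates, open markers are arrays where the probe was not detected, and bars are stage means; the vertical scale differs between panels. Aqp8 lay between 9.68 and 9.92 on the proestrus arrays, and no metestrus or diestrus array passed 6.82.

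Aqp8, a channel that passes ammonia and hydrogen peroxide as well as water, had the lowest F p-value of all 10144 genes. Its level was 9.92, 9.68 and 9.86 on the proestrus arrays, and 8.60, 8.88 and 8.85 on the estrus arrays. It was 6.67, 6.72 and 6.65 at metestrus and 6.62, 6.82 and 6.76 at diestrus. The proestrus arrays were all above the estrus arrays, and those were all above the arrays of the last 2 stages, which overlapped each other. The raw signal shows the same without any normalisation. It was 1546, 704.8 and 752 at proestrus, 699, 406 and 386 at estrus, 216, 141 and 135 at metestrus, and 224, 140.2 and 148 at diestrus. In each stage the first value, from replicate 1, was the brightest, and within replicate 1 and within the other 2 replicates the order of the first 3 stages was the same.

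Estrus was the first step of the Aqp8 decline, and the step to metestrus was the larger one. Aqp8 averaged 8.78 ± 0.15 at estrus and 9.82 ± 0.12 at proestrus, a log2 difference of -1.04 ± 0.12 and a 2.06-fold fall (limma, adjusted p = 0.00107). It was the 1 aquaporin of 5 called in this comparison, where 1.02% of all genes were called and 0.158% were called lower. At metestrus it averaged 6.68 ± 0.04, against 8.78 ± 0.15 at estrus, a fall of 4.29-fold (log2 difference -2.10 ± 0.12, adjusted p = 2.6e-06). Diestrus averaged 6.73 ± 0.11 and was not separated from metestrus, with a difference of 0.06 and a 95% interval of -0.21 to 0.33. Across the cycle the differences were larger. Proestrus was 8.49-fold higher than diestrus (log2 3.09 ± 0.12, adjusted p = 2.01e-07), and metestrus was 8.83-fold lower than proestrus (-3.14 ± 0.12, adjusted p = 1.64e-07). Estrus was still 4.12-fold higher than diestrus (2.04 ± 0.12, adjusted p = 3.43e-06).

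The Aqp8 differences held in both array sets. For metestrus minus proestrus the log2 value was -3.25 between the replicate 1 arrays and -3.09 over replicates 2 and 3 (limma, adjusted p = 2.86e-05). For estrus minus proestrus it was -1.32 between the replicate 1 arrays and -0.90 over the others (adjusted p = 0.00522). When all 14778 kept probes were fitted singly with limma, 4.3% passed the F test. The second Aqp8 probe then gave -3.29 ± 0.18 for metestrus minus proestrus (limma, adjusted p = 2.26e-06). For estrus minus proestrus it gave -0.94 (adjusted p = 0.0386). Its raw signal spanned 123.2 to 1225.

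Aqp5, the apical channel of salivary, lacrimal and airway glands, was lower at each successive stage. Its level was 10.21, 10.48 and 10.32 at proestrus and 9.81, 9.87 and 9.95 at estrus. It was 8.84, 8.96 and 9.09 at metestrus and 8.44, 8.73 and 8.74 at diestrus. No array of one stage overlapped an array of another. The means were 10.34 ± 0.14, 9.88 ± 0.07, 8.96 ± 0.13 and 8.63 ± 0.17 in cycle order. Not each of these steps passed the test. The step at metestrus did: 8.96 ± 0.13 there, against 9.88 ± 0.07 at estrus, was a 1.89-fold fall (log2 -0.92 ± 0.13, limma, adjusted p = 0.00239). Aqp8 and Aqp5 were the 2 aquaporins called in metestrus against estrus, both lower, where 1.77% of all genes were called lower and 2.46% in either direction.

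For the first step of Aqp5, estrus minus proestrus, the log2 difference was -0.46 ± 0.13, with an adjusted p of 0.22 in limma. With the replicate number as a block the adjusted p was 0.0247, and with the array set as a block it was 0.0128. The last step, diestrus minus metestrus, was -0.33 with a 95% interval of -0.62 to -0.05 before adjustment and an adjusted p of 1 (0.299 with the replicate block). No aquaporin was called by limma in diestrus against metestrus, where 0.069% of all genes were called, or 0.296% with the block. Aqp5 was the 1 gene of 5 with an unadjusted p under 0.05 there, where 3.02% of all genes had one. Over the whole cycle the Aqp5 difference was larger. Proestrus exceeded diestrus by 3.26-fold (1.71 ± 0.13, adjusted p = 2.95e-05), and estrus exceeded diestrus by 2.37-fold (1.25 ± 0.13, adjusted p = 0.000287). Metestrus was 2.59-fold below proestrus (-1.38 ± 0.13, adjusted p = 0.000122), with -1.37 between the replicate 1 arrays and -1.38 over replicates 2 and 3. The second Aqp5 probe gave -1.41 ± 0.15 for that difference (adjusted p = 0.000307).

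Aqp1 rose between proestrus and the stages after ovulation. Its level was 11.98, 12.12 and 12.20 at proestrus and 12.36, 12.82 and 12.80 at estrus. It was 13.16, 13.08 and 13.13 at metestrus and 12.77, 13.26 and 12.99 at diestrus. Every array of the other 3 stages was above every proestrus array, while diestrus overlapped both estrus and metestrus. Metestrus averaged 13.12 ± 0.04 and proestrus 12.10 ± 0.11, a 2.03-fold rise (log2 1.02 ± 0.16, limma, adjusted p = 0.00307). Proestrus was 1.88-fold lower than diestrus, at 12.10 ± 0.11 against 13.01 ± 0.24 (log2 -0.91 ± 0.16, adjusted p = 0.00656). Between the replicate 1 arrays these differences were 1.18 and -0.79, and over replicates 2 and 3 they were 0.94 and -0.96. The smaller steps did not pass without a block. Estrus minus proestrus was 0.56 ± 0.16 (adjusted p = 0.22, and 0.0345 with the replicate block), and metestrus minus estrus was 0.46 ± 0.16 (adjusted p = 0.219, and 0.0434 with the block). This second step differed between the sets, at 0.80 between the replicate 1 arrays and 0.29 over replicates 2 and 3. Estrus minus diestrus was -0.35 ± 0.16 (adjusted p = 0.472).

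All 3 Aqp1 probes were detected on all arrays and had the same direction. The other 2 gave 0.86 ± 0.17 (adjusted p = 0.0122) and 0.70 ± 0.11 (adjusted p = 0.00407) for metestrus minus proestrus, when tested with limma among all probes. Raw signals ran from 3788 to 10502 for the first probe, 1057 to 4198 for the second and 599 to 1684 for the last.

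Aqp1 marks endothelium, red cells and mesothelium in many organs, so the markers of these cells are given beside it. The summed linear intensity of 9 endothelial markers was 6916 to 8346 at metestrus and 5629 to 6856 at proestrus. By limma 0 of these 9 genes was called in that comparison, 4 had an unadjusted p under 0.05, and 3 were called with the replicate block. Over all genes the shares were 5.33%, 17.8% and 16.5%. In proestrus against diestrus 1 was called, 2 had an unadjusted p under 0.05, and 3 were called with the replicate block. The shares over all genes there were 4.86%, 17.6% and 16.3%. The called gene was Plvap, a protein of endothelial fenestrae, which was higher at proestrus (0.48 ± 0.12, adjusted p = 0.0415). The median of the 9 genes had the other sign there, at -0.16, against -0.02 over all genes, with Robo4 at -0.64 (adjusted p = 0.0822). The sum of the 3 red cell markers on the array was 3674 to 10270 at metestrus and 7232 to 11020 at proestrus. That of the 6 mesothelial markers was 10130 to 11930 at metestrus and 9538 to 10280 at proestrus. In metestrus against proestrus the red cell and mesothelial ranges overlapped and the endothelial ranges did not. Of all tested genes taken singly, 23.3% had arrays that did not overlap in this pair, and 24.7% in proestrus against diestrus. The median of the 9 endothelial genes in metestrus minus proestrus was 0.26, against 0.02 over all genes. Robo4 was at 0.69 ± 0.19 (limma, adjusted p = 0.0574), while Plvap at -0.31 and Kdr at -0.09 had the other sign. In proestrus against diestrus the endothelial ranges overlapped, at 5629 to 6856 against 6106 to 7892. There the mesothelial sum was lower at proestrus, at 9538 to 10280 against 10480 to 11810 at diestrus, and the red cell sum was higher, at 7232 to 11020 against 4319 to 5121. The part of these cells in the Aqp1 result was not tested.

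Aqp11, an intracellular aquaporin whose loss in mice gives polycystic kidneys, was the least secure of the 4 changes. Its level was 6.15, 6.20 and 6.45 at proestrus and 6.15, 6.58 and 6.61 at estrus. It was 6.69, 7.17 and 7.23 at metestrus and 6.89, 6.87 and 7.001 at diestrus. Every metestrus and diestrus array was above every proestrus and estrus array, while the stages within each of these pairs overlapped. Metestrus averaged 7.03 ± 0.30 and proestrus 6.27 ± 0.16, a 1.70-fold rise (log2 0.76 ± 0.18, limma, adjusted p = 0.0278). The difference was 0.53 between the replicate 1 arrays and 0.88 over replicates 2 and 3 (adjusted p = 0.00444). The raw signal was low, from 118.2 to 256.3. Without proestrus replicate 1 or 2, or without metestrus replicate 2 or 3, the adjusted p of this difference was 0.0935, 0.105, 0.102 and 0.102 in that order. The F call held in 1 of the 12 fits that left out an array, the one without metestrus replicate 1.

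A further 3 Aqp11 comparisons were called with the replicate block and not in the main limma fit. Proestrus minus diestrus was -0.65 ± 0.18 (adjusted p = 0.0571, and 0.00398 with the block). It was also called without a block over replicates 2 and 3 (adjusted p = 0.016) and with median scaling (0.024), among other settings. Metestrus minus estrus was 0.58 ± 0.18 (adjusted p = 0.137, 0.0109 with the block and 0.028 over replicates 2 and 3). Estrus minus diestrus was -0.48 ± 0.18 (adjusted p = 0.307, and 0.0344 with the block). This value depended on the set, at -0.74 between the replicate 1 arrays and -0.34 over replicates 2 and 3, where it was not called (adjusted p = 0.129). Estrus minus proestrus was 0.18 ± 0.18, with an adjusted p of 1 and 0.536 with the block. The second Aqp11 probe was detected on 0 of 12 arrays, with raw signals of 76.5 to 98, so 1 probe carries the Aqp11 result.

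Aqp3 could not be placed. Its 1 probe was detected on 4 of 12 arrays, 2 at estrus and 1 each at metestrus and diestrus, with raw signals of 95.9 to 128.8 throughout. Its normalised level ranged from 4.73 to 6.08, with both ends in diestrus. Stage means lay between 5.40 and 5.59, and all adjusted p-values were 0.951 or more. The 95% interval for metestrus minus proestrus was -0.62 to 0.76 and for estrus minus proestrus -0.51 to 0.87. With the replicate block the standard error of these differences was 0.165, against 0.314 without it, and the adjusted p-values stayed at 0.676 or more.

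**Figure D2:**
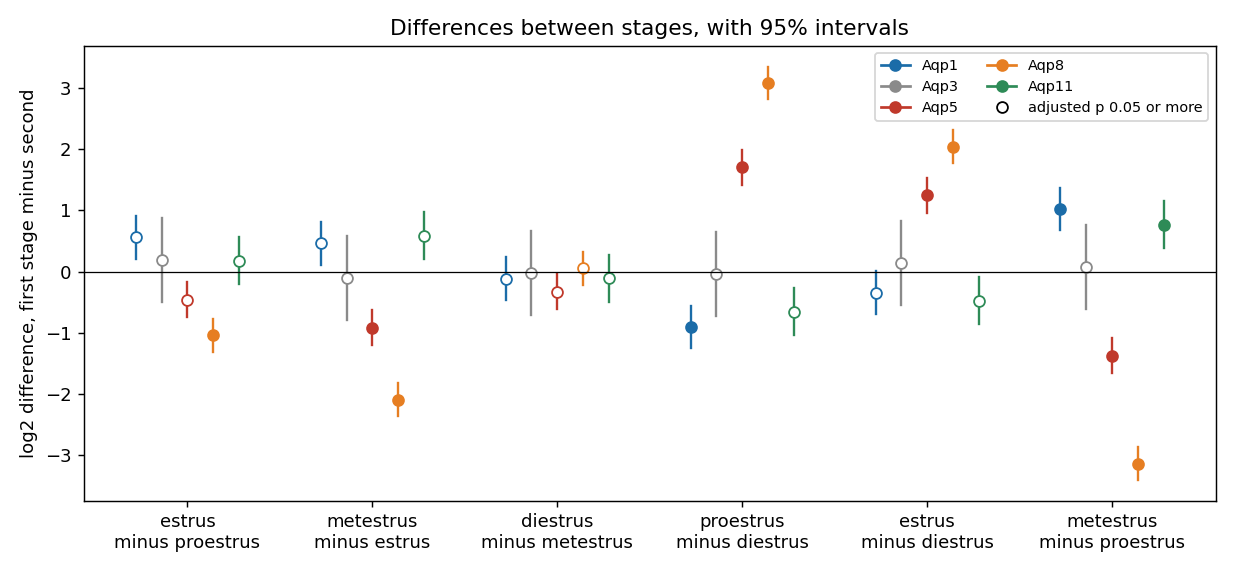
Log2 difference (vertical axis, first-named stage minus second) of the 5 aquaporins in the 6 pairs of stages. Bars are unadjusted 95% intervals from the limma fit, and filled points have an adjusted p under 0.05. Aqp8 and Aqp5 are below 0 and Aqp1 and Aqp11 above 0 in metestrus minus proestrus, at -3.14, -1.38, 1.02 and 0.76.

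Metestrus against proestrus was the comparison with the most aquaporins called, among 5 genes chosen with earlier results of these data known. There 4 of 5 were called, 2 higher and 2 lower, where 5.33% of all genes were called, 2.91% higher and 2.43% lower. In proestrus against diestrus 3 of 5 were called, Aqp8 and Aqp5 higher and Aqp1 lower, where 4.86% of all genes were called, 2.21% higher and 2.65% lower. In estrus against diestrus Aqp8 and Aqp5 were called, both higher, where 2.22% of all genes were called and 1.65% were called higher. With the replicate block, 3 aquaporins were called in estrus minus proestrus (3.06% of all genes), 4 in metestrus minus estrus (8.35%), 4 in proestrus minus diestrus (16.3%), 3 in estrus minus diestrus (6.9%) and 4 in metestrus minus proestrus (16.5%). Counted by arrays that did not overlap between the 2 stages, 3 of 5 aquaporins separated in estrus minus proestrus (13.4% of all genes), 4 in metestrus minus estrus (17.8%), 1 in diestrus minus metestrus (5.98%), 4 in proestrus minus diestrus (24.7%), 3 in estrus minus diestrus (17.3%) and 4 in metestrus minus proestrus (23.3%). The median log2 difference of the 5 genes in metestrus minus proestrus was 0.07, against 0.02 over all tested genes.

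**Figure D3:**
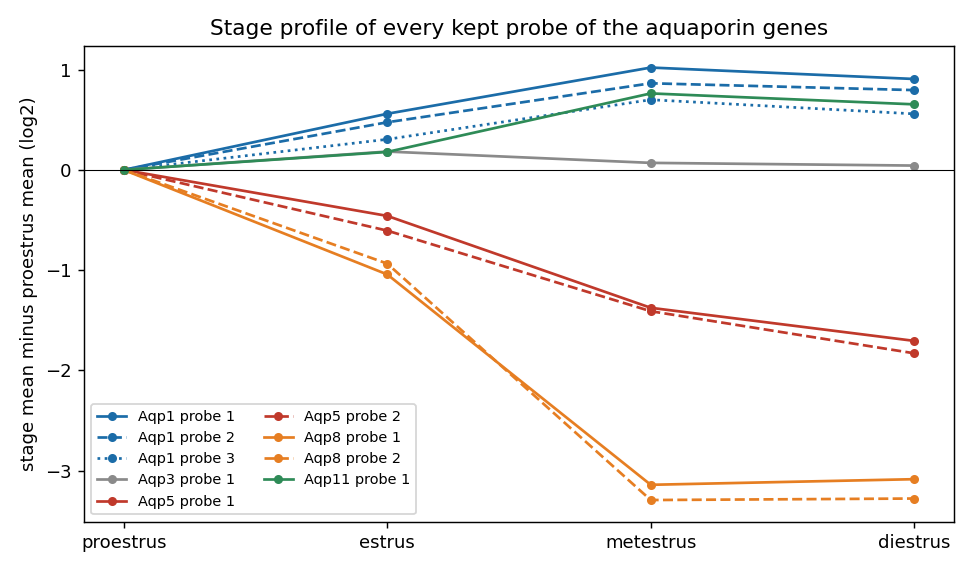
Stage mean minus proestrus mean (log2, vertical axis) of the 9 kept probes of the 5 genes, with line styles for the probes of 1 gene. The 2 Aqp8 probes reach -3.14 and -3.29 at metestrus, the 2 Aqp5 probes -1.38 and -1.41, and the 3 Aqp1 probes lie between 0.70 and 1.02.

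The array carried 12 aquaporin genes and 20 probes in all, and 1 of the 7 further genes had a kept probe. This was Aqp4, the channel of astrocyte end-feet and of basolateral epithelial membranes, detected on all 12 arrays. Aqp4 averaged 6.49 ± 0.13 at proestrus and 7.12 ± 0.01 at diestrus, a log2 difference of -0.64 ± 0.14 (limma, adjusted p = 0.0197). In the other 5 pairs of stages it was not called without the block, and metestrus minus proestrus had an adjusted p of 0.153 (0.0473 with the block). Its F test gave an adjusted p of 0.0719 (0.0164 with the block). Aqp6, Aqp7 with its 4 probes, Aqp9, Aqp12 and Mip were detected on 0 of 12 arrays, and Aqp2, the vasopressin-regulated channel of the kidney, on 1, a proestrus array. On GRCm38.p6, Aqp5 lies between Aqp2 and Aqp6 on chromosome 15, and neither of these neighbours was detected beyond that 1 array. Aqp3 lies beside Aqp7 on chromosome 4, Aqp8 and Aqp11 lie on chromosome 7 with other genes beside them, and Aqp1 lies on chromosome 6.

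**Figure D4:**
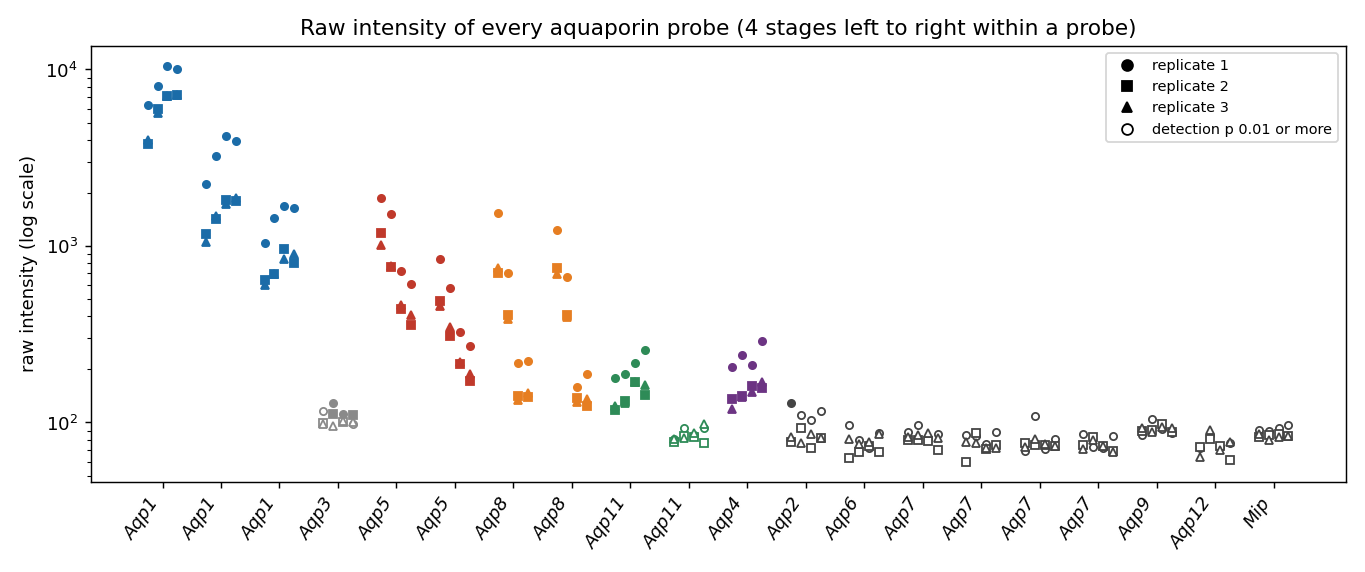
Raw intensity (log axis) of all 20 aquaporin probes on 12 arrays, with the 4 stages left to right within a probe and marker shapes for the replicates. Open markers have a detection p of 0.01 or more; heights of different probes are not comparable. The slopes of Aqp1, Aqp5 and Aqp8 are present in the raw values of both array sets, while Aqp6, Aqp7, Aqp9, Aqp12 and Mip hold open markers only.

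Transporters that make the osmotic gradient were looked at as a list of 34 genes, of which 28 were on the array and 22 could be tested. By the F test 4 of 22 changed (10 with the replicate block), where 5.37% of all genes did (16.4% with the block). Car12, a membrane carbonic anhydrase that feeds bicarbonate transport, averaged 9.28, 8.65, 7.19 and 7.24 in cycle order. It was lower at metestrus than at proestrus by -2.09 ± 0.30 (limma, adjusted p = 0.00164). Slc26a4, the chloride and bicarbonate exchanger pendrin, averaged 7.05, 7.70, 6.16 and 6.00, and its metestrus minus estrus difference was -1.54 (adjusted p = 0.00541). Clca1, a secreted modulator of calcium-activated chloride channels, was highest at estrus, where it averaged 6.95 and was detected on 3 of 3 arrays, and it was detected on 0 arrays of each other stage. It was therefore at least 2.49-fold higher at estrus than at proestrus, taking the lowest signal of a detected probe on each proestrus array as its floor. That bound was not tested. The limma difference without the floor was 2.21 ± 0.29 (adjusted p = 0.00201). Atp1b1, the beta subunit of the sodium pump, averaged 11.56, 11.59, 12.09 and 11.97, with metestrus 0.52 ± 0.12 above proestrus (adjusted p = 0.0315).

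In metestrus against proestrus 1 of the 22 transporters was called higher and 2 lower, or 8 in either direction with the replicate block, where 5.33% and 16.5% of all genes were called. Their median log2 difference was -0.11, against 0.02 over all genes. In metestrus against estrus 3 were called lower and 0 higher by limma, with 7 at an unadjusted p under 0.05 and 6 called with the block, where the shares over all genes were 2.46%, 12.2% and 8.35%. In diestrus against metestrus 0 were called, with 0 at an unadjusted p under 0.05 and 0 with the block, where the shares over all genes were 0.069%, 3.02% and 0.296%. The osmotic stress list had 13 genes, 9 tested, and 0 were called by limma's F test or in any pair of stages. There 1 had an unadjusted F p under 0.05, and 1 passed the F test with the replicate block. Over all genes those shares were 15.9% and 16.4%. Its lowest F p-values belonged to Nfat5, the tonicity-responsive transcription factor, with an adjusted p of 0.176, and to the taurine transporter Slc6a6, with 0.501. Of 18 genes of aquaporin trafficking and vasopressin signalling 13 were tested and 0 passed limma's F test, with 1 at an unadjusted p under 0.05 and 2 passing with the block. The shares over all genes were 5.37%, 15.9% and 16.4%. The vasopressin receptor Avpr1a, with an F adjusted p of 0.0858, was lower at proestrus than at diestrus by -0.77 ± 0.20 (adjusted p = 0.0449). It was the 1 gene of the 13 called in that pair of stages, where 4.86% of all genes were called. The other gene with a low F p-value in that list was Mal, a protein of apical membrane sorting, with an adjusted p of 0.402.

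Epithelial markers were set beside Aqp8 and Aqp5. The summed linear intensity of the 5 secretory markers was 33240 to 63790 at metestrus and 33170 to 52470 at proestrus, and that of the 6 ciliated markers was 22720 to 34780 at metestrus and 26460 to 31270 at proestrus. Both pairs of ranges overlapped. Among the secretory markers 1 of 5 was called by F and 2 with the replicate block, where 5.37% and 16.4% of all genes were. The one called without the block was Krt7, a keratin of simple epithelia, which averaged 9.13 at metestrus and 10.15 at proestrus (F adjusted p = 0.000685). The median of the 5 in metestrus minus proestrus was 0.12, and Sox17, a transcription factor of secretory cells, averaged 11.41 at metestrus and 10.83 at proestrus (F adjusted p = 0.138). The theca marker Cyp17a1, a steroid-making enzyme, averaged 5.68 at metestrus and 7.28 at proestrus (F adjusted p = 0.0038). The other theca marker, Insl3, was not detected on any of the 12 arrays. The part of these cells in the Aqp8 and Aqp5 results was not tested.

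At estrus, the summed markers of granulosa and luteal cells and of oocytes were high, though not every ovarian marker was. Granulosa and luteal markers, 7 of 9 on the array, summed to 3169 to 3790 at estrus and 469.7 to 556.6 at proestrus. The 9 oocyte markers summed to 1441 to 1862 at estrus and 198.2 to 386.4 at proestrus, with Zp1 and Zp2 undetected throughout. Of the granulosa and luteal markers, Amh was not detected on any array. Foxl2 averaged 5.12 at estrus and 5.41 at proestrus, and was detected on 0 and 1 of these arrays. The theca marker Cyp17a1 averaged 7.07 at estrus and 7.28 at proestrus. The adipocyte sum was 1471 to 1515 at estrus and 841.8 to 875.8 at proestrus, with Plin1 and Fabp4 undetected. Adipoq weighed most in it, at 10.19 at estrus and 9.27 at proestrus, and Cidec averaged 7.435 and 6.557. Lep was level, at 7.438 and 7.422. At metestrus the granulosa and luteal, oocyte and adipocyte sums were lower than at estrus, at 680.8 to 790.2, 210.2 to 434 and 912.7 to 1322. In estrus minus proestrus the log2 difference was -1.04 for Aqp8, -0.46 for Aqp5 and 0.56 for Aqp1, and only that of Aqp8 was called without a block. The part of these cells in the estrus differences was not tested. Smooth muscle markers summed to 92330 to 101600 over all arrays. Acta2 weighed most in that sum, at 15.84, 15.80, 15.80 and 15.80 in cycle order, near the top of the scale. Quantile normalisation gives equal ranks equal values on every array, so this steady sum says little about the amount of muscle. Of the stratified epithelium markers Krt5, Krt6a and Krt1 were undetected throughout.

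The 4 aquaporins that passed the F test followed 2 stage patterns. Over the 12 arrays, each replicate number centred on its own mean, Aqp8 and Aqp5 had a Pearson r of 0.975 and Aqp1 and Aqp11 of 0.857. Across these pairs r was between -0.941 and -0.893. These are descriptions of 4 stage means and their scatter on shared arrays, and carry no p-value. Of all tested genes, those most like Aqp8 by the same measure were Fbln2 (0.994), Sox18 (0.991), Arg1 (0.991), Adamts4 (0.989) and Car12 (0.988), the last being the carbonic anhydrase above. Arg1, which splits arginine to urea and ornithine, was -3.02 in metestrus minus proestrus, beside -3.14 for Aqp8.

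Most like Aqp5 were Bace2 (0.986), Adh1 (0.986), Ddost (0.985), Bcat1 (0.984) and Syn2 (0.983). Most like Aqp1 were Prelp (0.989), Ccn2 (0.987), Fbln1 (0.984), Tnfrsf11b (0.979) and Lrig1 (0.978). Prelp and Fbln1 encode proteins of the extracellular matrix, and Fbln1 was 1.20 in metestrus minus proestrus, beside 1.02 for Aqp1. Most like Aqp11 were Fn3k (0.985), Tgfb3 (0.979), Inmt (0.964), Insl6 (0.963) and Hdac5 (0.962). Of the genes named as alike, Ddost, Tnfrsf11b, Fn3k, Tgfb3, Inmt and Hdac5 did not pass limma's F test, with adjusted p-values from 0.0548 to 0.66.

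**Figure D5:**
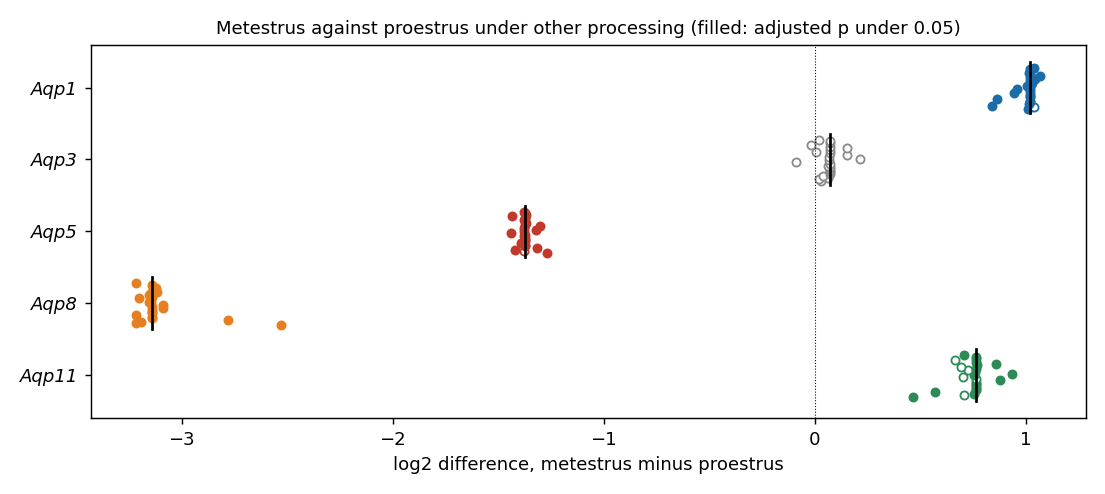
Log2 difference metestrus minus proestrus (horizontal axis) of the 5 aquaporins under each other way of processing the arrays or leaving one out; the black bar is the value reported and filled points have an adjusted p under 0.05. Aqp8 ranges from -3.22 to -2.53 and stays filled, while Aqp11 has open and filled points, all above 0.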

How the data were processed

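Per the file headers, the deposited files give each array's raw intensity per probe with its detection p-value. A further table by the authors holds intensity values less background, negative in part, with medians of 46.7 to 46.8 for replicate 1 and 23.4 for the rest. How it was made is not stated in any source used here. With neqc of limma 3.58.1 (R 4.3.3), the raw values were corrected by normexp with the detection p-values, quantile normalised over the 12 arrays, raised by 16 and taken as log2. Probes detected at p under 0.01 on at least 3 arrays were kept (14778), named from the platform annotation (23978 of 25697 probes named). The brightest kept probe stood for a gene (10144 genes). The limma fit had 1 mean per stage and 8 residual degrees of freedom, with eBayes, an F test and 6 pairs of stages, each adjusted by Benjamini-Hochberg over all genes at 0.05. Probes were also fitted singly. The fit was tested on simulated data.

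Same-numbered arrays of different stages, after removal of stage means, correlated at 0.618 to 0.809, 0.261 to 0.512 and 0.357 to 0.552 for replicates 1, 2 and 3, and replicate 2 with 3 at 0.218 to 0.542. Replicate 1 correlated with 2 at -0.64 to -0.276 and with 3 at -0.694 to -0.47. As every same-numbered pair passed 0.1, values with the replicate number as a block are given where they change a call. Replicates 2 and 3 correlated with each other about as arrays of replicate 2 did among themselves. The values therefore separate replicate 1 from the rest and do not show that same-numbered arrays were paired.

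Marker sums add linear normalised intensities, less the offset, of each gene's brightest probe, so the brightest genes of a list weigh most. At proestrus these were Ovgp1 (15.06 on the log2 scale) for secretory cells and Hba-a1 (13.14) for red cells. For mesothelium they were Wt1 (12.28) and Krt19 (11.51). For granulosa and luteal cells at estrus they were Akr1c18 (10.90) and Inha (10.06). From each list, up to 4 genes with the lowest F p-value that passed are named, or the 2 lowest where none passed. For each aquaporin past the F test, the 5 genes of highest correlation are named. Plvap, Robo4, Kdr, Krt7, Sox17, Cyp17a1, Foxl2, Cidec, Lep, undetected markers and the genes that weigh most in the sums were named after their values were seen. Members and lists were chosen with earlier results of these data known. Promoters came from a RefSeq table, searched with Python 3.11.15. Other settings covered background, normalisation, offset, filter, probe choice, blocks, array sets and each array left out. The number of arrays limits the precision.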

Additional observations from a re-analysis of the deposited data

How the results depend on the processing

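The number of aquaporins called was within 1.5 times the value reported under most of the 24 to 26 alternatives per comparison. With the deposited values in place of the raw ones it was 1 by the F test, 0 in estrus minus proestrus and 1 each in metestrus minus estrus, proestrus minus diestrus, estrus minus diestrus and metestrus minus proestrus. The deposited values keep the different scales of replicate 1 and the others. With a replicate block on them, an alternative chosen after seeing the data, the counts were 4 by F, 3 in estrus minus proestrus, 3 in metestrus minus estrus, 4 in proestrus minus diestrus, 3 in estrus minus diestrus and 4 in metestrus minus proestrus. On the main values, a replicate block or an array set block gave 3 in estrus minus proestrus and 4 in metestrus minus estrus. Replicates 2 and 3 alone gave 2 in estrus minus proestrus. The replicate block changed no call of a single aquaporin beyond those given with the results. Leaving out each array in turn gave 3 to 4 by F, 1 in estrus minus proestrus, 2 to 3 in metestrus minus estrus, 0 in diestrus minus metestrus, 3 to 4 in proestrus minus diestrus, 2 in estrus minus diestrus and 3 to 4 in metestrus minus proestrus. Aqp8, Aqp5 and Aqp1 kept their called differences in 12 of 12 such fits. The Aqp1 F test had an adjusted p of 0.0636 with median scaling, and that of Aqp11 was 0.0549 with an offset of 50, 0.061 without the filter, 0.0654 on raw intensities and 0.0102 to 0.155 with an array left out.

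Sign changes were confined to differences that were not called. Aqp3 turned to -0.10 in estrus minus proestrus, 0.12 in metestrus minus estrus and 0.232 in proestrus minus diestrus with the deposited values, with and without the block. It turned to 0.035 in proestrus minus diestrus with median scaling, to 0.006 in diestrus minus metestrus with an offset of 50, and to 0.18 in that pair and -0.04 in estrus minus diestrus with replicates 2 and 3 alone. Leaving out an array gave Aqp3 ranges of -0.04 to 0.35 in estrus minus proestrus, -0.28 to 0.11 in metestrus minus estrus, -0.35 to 0.32 in diestrus minus metestrus, -0.39 to 0.28 in proestrus minus diestrus, -0.21 to 0.46 in estrus minus diestrus and -0.089 to 0.214 in metestrus minus proestrus. Aqp1 in diestrus minus metestrus was 0.022 with replicates 2 and 3 alone and -0.24 to 0.003 with an array left out. The cause of these changes was not tested. Signal near background limits Aqp3, and 1 dim probe limits Aqp11.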
